A study of Caenorhabditis elegans with 2 samples.

Results

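The ATP synthase gene atp-1, the cytochrome c oxidase genes cox-5A and cox-5B and the cytochrome c gene cyc-2.1 are nuclear genes of the nematode Caenorhabditis elegans for the mitochondrial respiratory chain, and each of these 4 had a MADF-5::GFP peak near an annotated start. They were chosen by their peaks in these same data, so their presence in the whole-series lists below, their signals and their scores are a description and carry no test. They are 4 of the 46 genes of the chain that a list of symbols picked out among 19985 annotated protein-coding genes. Of the 46, 8 encode complex IV assembly factors, and the list may not hold every gene of the chain. The experiment was ChIP-seq, in which DNA bound by a tagged protein is precipitated and sequenced, on whole L4 larvae 50 h old of strain OP436, grown from L1 larvae starved after bleaching. Both samples belong to 1 group, with 2 biological replicates and no other genotype, treatment or time. The worms carried the transgene wgIs436, in which madf-5 (C01G12.1) is fused to TY1, EGFP and 3xFLAG, together with the rescue marker unc-119(+) and the allele unc-119(tm4063), and the precipitation used an antibody against GFP. A single transgenic line was used, and a peak from whole animals cannot be placed in one tissue. No input or mock precipitation was analysed here.

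The respiratory chain passes electrons from NADH and succinate through complexes I, II and III to the small carrier cytochrome c, then to complex IV (cytochrome c oxidase), which reduces oxygen. The proton gradient built on the way drives ATP synthase, also called complex V. Most subunits are encoded in the nucleus and imported, and in C. elegans the amount of several of them, cox-5B among them, is known to influence lifespan and the mitochondrial stress response. MADF-5 is named for its MADF domain, which in other proteins binds DNA. Many worm transcripts are trans-spliced, so an annotated start can lie downstream of the place where transcription begins.

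The 2 peak sequences printed here are those of cox-5A and cyc-2.1. The cox-5A peak lay in DNA with no other gene start nearby, piRNA genes left aside. The cyc-2.1 summit lay in an intron of its longer annotated transcript. Both sequences are the whole peak of the conservative list, 224 bases in the direction of the gene, read from the RefSeq WBcel235 genome (ce11). The cox-5A peak spans chrIII:12905089-12905312 on the plus strand, with its summit at base 113. The cyc-2.1 peak spans chrIV:4748549-4748772 and is given for the minus strand, with its summit at base 112. Capitals mark the longest run of bases that both share in this orientation, which was found after the sequences were seen.
cox-5A: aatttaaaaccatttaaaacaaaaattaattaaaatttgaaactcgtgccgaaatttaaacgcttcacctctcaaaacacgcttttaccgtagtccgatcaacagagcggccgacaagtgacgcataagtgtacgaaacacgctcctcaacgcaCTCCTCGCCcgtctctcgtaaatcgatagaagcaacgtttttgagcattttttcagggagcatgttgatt
cyc-2.1: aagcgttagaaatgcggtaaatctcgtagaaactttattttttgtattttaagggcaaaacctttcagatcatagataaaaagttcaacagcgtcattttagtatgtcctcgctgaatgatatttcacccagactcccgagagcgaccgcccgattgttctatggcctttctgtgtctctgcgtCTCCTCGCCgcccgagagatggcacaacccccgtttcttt
The shared run CTCCTCGCC covers bases 155 to 163 of the cox-5A peak and bases 185 to 193 of the cyc-2.1 peak, starting 42 bp and 73 bp downstream of the summits. In windows of 201 bp, searched on both strands, it occurred in 13 of 19973 promoters (0.0651%) and in 2 of the 813 summits of the conservative list, which are these 2. Because the run was picked from these sequences, its presence in them is no result.

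A summit is the position of highest signal in a peak. Signal is the value the authors' peak caller gave the peak, whose scale no label or header gives. The score runs to 1000 and follows the irreproducible discovery rate (IDR). A higher score means that a peak ranked high, and alike, in the 2 inputs that were compared. The whole-series lists came from the alignments of both replicates and each replicate list from its own. Scores of a whole-series list and of a replicate list thus rest on different inputs. A ranked list holds all candidate peaks, and a thresholded list holds those past the authors' IDR limit, where the lowest score was 830 (831 in replicate 1). The conservative list, the other whole-series list and the lists of replicates 1 and 2 held 813, 844, 411 and 254 thresholded peaks out of 116935, 117964, 64186 and 70113 ranked ones. Replicate signals were compared as percentiles within their own list, since the lists were called separately. The labels and file headers used here give no read totals, so the counting error of a signal is unknown.

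All 4 genes had a thresholded summit within 500 bp of a start in the conservative list, where 1.83% of the protein-coding genes near any ranked summit did (287 of 15722). All 4 also had one in the other whole-series list, where the share of protein-coding genes was 1.84%. In the list of replicate 1, cox-5B lacked one and the other 3 had it, beside 1.38% of protein-coding genes. In the list of replicate 2, none of the 4 had one, beside 0.505%. The genes were picked on the whole-series lists, which pool the reads of both replicates, so the 4 lists are not independent and nothing is read from these shares. In the ranked lists every gene had a summit within 500 bp in both replicates.

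**Figure D1:**
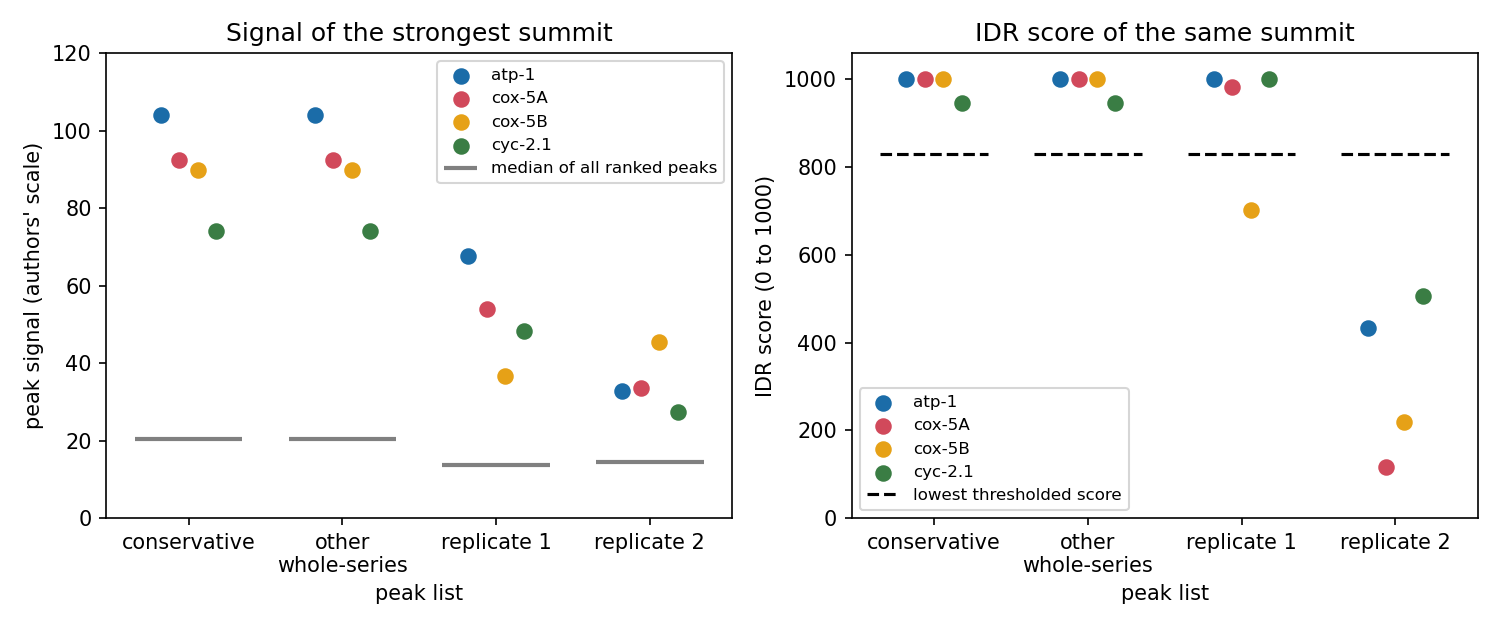
Signal (left) and IDR score (right) of the highest-signal summit within 500 bp of a start of each gene in 4 ranked lists. Grey bars show the median signal of all ranked peaks and dashed lines the lowest score in the thresholded list; all 4 scores in replicate 2, 116 to 506, lie below the line, while all 4 signals lie above the median.

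The first complex IV gene, cox-5A (WBGene00012553), encodes a small nuclear subunit of cytochrome c oxidase. Its start lies at chrIII:12905491 on the plus strand, and the summit of the conservative list lay at position 12905201, a signed distance of -290 bp, where the minus sign means upstream. The signal was 92.3, with the top score of 1000, and it ranked 334 of 116935 ranked peaks. This summit was between protein-coding genes, and no other annotated gene, piRNA genes left aside, began within 5000 bp of it. The nearest tRNA gene began 104222 bp away and the nearest snoRNA gene 177039 bp away.

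In replicate 1 the cox-5A summit had a signal of 54.0 (rank 266 of 64186) and a score of 983, past the limit, at -291 bp. In replicate 2 the signal was 33.5 (rank 1085 of 70113) with a score of 116, below the limit, and the summit lay at -257 bp, 33 bp from that of the conservative list. Both signals were thus high in their own list, at percentiles 99.6 and 98.5, and the score was the measure that parted the replicates. Its score in replicate 2 was the lowest of the 4 genes, although its signal there was the second highest.

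The second complex IV gene, cox-5B (WBGene00000371, also called cco-1), encodes another nuclear subunit of the same oxidase and is a known target of lifespan studies in which it is silenced. It lies on the plus strand with annotated starts at chrI:9788725 and chrI:9789009. The conservative peak spanned chrI:9788610-9788833 and its summit lay at -3 bp from the upstream start and at -287 bp from the downstream one. The signal was 89.9 (rank 354) and the score 1000. RefSeq annotates the downstream start alone, from which the summit was also within 500 bp.

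Neither replicate list held the cox-5B peak past its limit. In replicate 1 its signal was 36.8 (rank 784) with a score of 703, and in replicate 2 its signal was 45.4 (rank 380) with a score of 219, both at -3 bp. It was the one gene of the 4 that ranked higher in replicate 2 than in replicate 1. The cox-5B summit lay at the same base in all 4 ranked lists, while the cox-5A and cyc-2.1 summits lay up to 34 bp and 62 bp apart between lists.

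2 further ranked summits flanked the cox-5B peak without passing the limit in any list. The first lay at -639 bp with a signal of 58.8 (rank 1094) and a score of 675, and was 462 bp from the start of the divergent tba-1, an alpha-tubulin gene that begins 1098 bp from the cox-5B summit. The second lay at +73 bp from the downstream start, in a coding exon, with a signal of 46.5 and a score of 471. The start of the non-coding RNA gene F26E4.16, inside cox-5B on the same strand, was 499 bp from the main summit, and F26E4.14 began 524 bp from it. The nearest snoRNA and tRNA genes began 37540 bp and 94974 bp away.

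Upstream of complex IV in the chain, cyc-2.1 (WBGene00017121) encodes cytochrome c, the soluble electron carrier that also takes part in cell death signalling in mammals. It lies on the minus strand with annotated starts at chrIV:4748449 and chrIV:4749012. The conservative summit at position 4748661 lay between them, at -212 bp from the nearer start and in the first intron of the longer transcript. Its signal of 74.0 (rank 582) and score of 945 were the lowest of the 4 genes in that list. RefSeq annotates 1 cyc-2.1 transcript, and the summit lay at -212 bp from its start, upstream of the gene in that annotation.

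Replicate 1 held 2 thresholded peaks at cyc-2.1. The stronger had a signal of 48.3 (rank 377) and a score of 1000 at -160 bp, and the weaker had a signal of 38.4 and a score of 917 at -57 bp from the upstream start. In replicate 2 the strongest summit had a signal of 27.5 (rank 2941) and a score of 506 at -222 bp. Its percentile there, 95.8, was the lowest of the 4 genes in any list.

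The cyc-2.1 locus was the most crowded of the 4. Besides the main summit, the conservative ranked list held summits of signal 60.1 at -59 bp from the upstream start and 50.7 at +276 bp in a coding exon, neither past the limit, with scores of 307 and 727. A further one of signal 49.2 at +760 bp lay in tctn-1, the next gene on the same strand, which begins 829 bp from the main summit. The ribosomal protein gene rpl-20 begins 1117 bp from the main summit and shares a stronger peak of its own, signal 154 and score 1000, with the divergent gene Y17G9B.5. The nearest thresholded summit of replicate 2 was 1412 bp from that of cyc-2.1. No tRNA or snoRNA gene began within 5000 bp, the nearest being a snoRNA gene at 42694 bp.

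The ATP synthase gene atp-1 (WBGene00010419) encodes the alpha subunit of the catalytic F1 head. It starts at chrI:12652277 on the plus strand, and the conservative peak spanned chrI:12652166-12652389 with its summit at +1 bp, in the 5′ untranslated exon and 112 bp ahead of the start codon. Its signal of 104 (rank 259) and score of 1000 made it the strongest of the 4 peaks. In replicate 1 the signal was 67.7 (rank 168) with a score of 1000 at +2 bp, and in replicate 2 it was 32.8 (rank 1197) with a score of 433 at 0 bp. It was thus the strongest of the 4 in replicate 1 and the third in replicate 2.

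The atp-1 peak was also the only one of the 4 with protein-coding starts on both strands within 500 bp. The divergent gene mcrs-1 begins 190 bp from the atp-1 start and 191 bp from the summit, so the peak cannot be given to one of these genes. The nearest tRNA and snoRNA genes began 50500 bp and 608453 bp away. At atp-1 1 ranked summit lay within 500 bp of the start in each of the 3 lists just described, against 3 conservative ones at cyc-2.1.

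**Figure D2:**
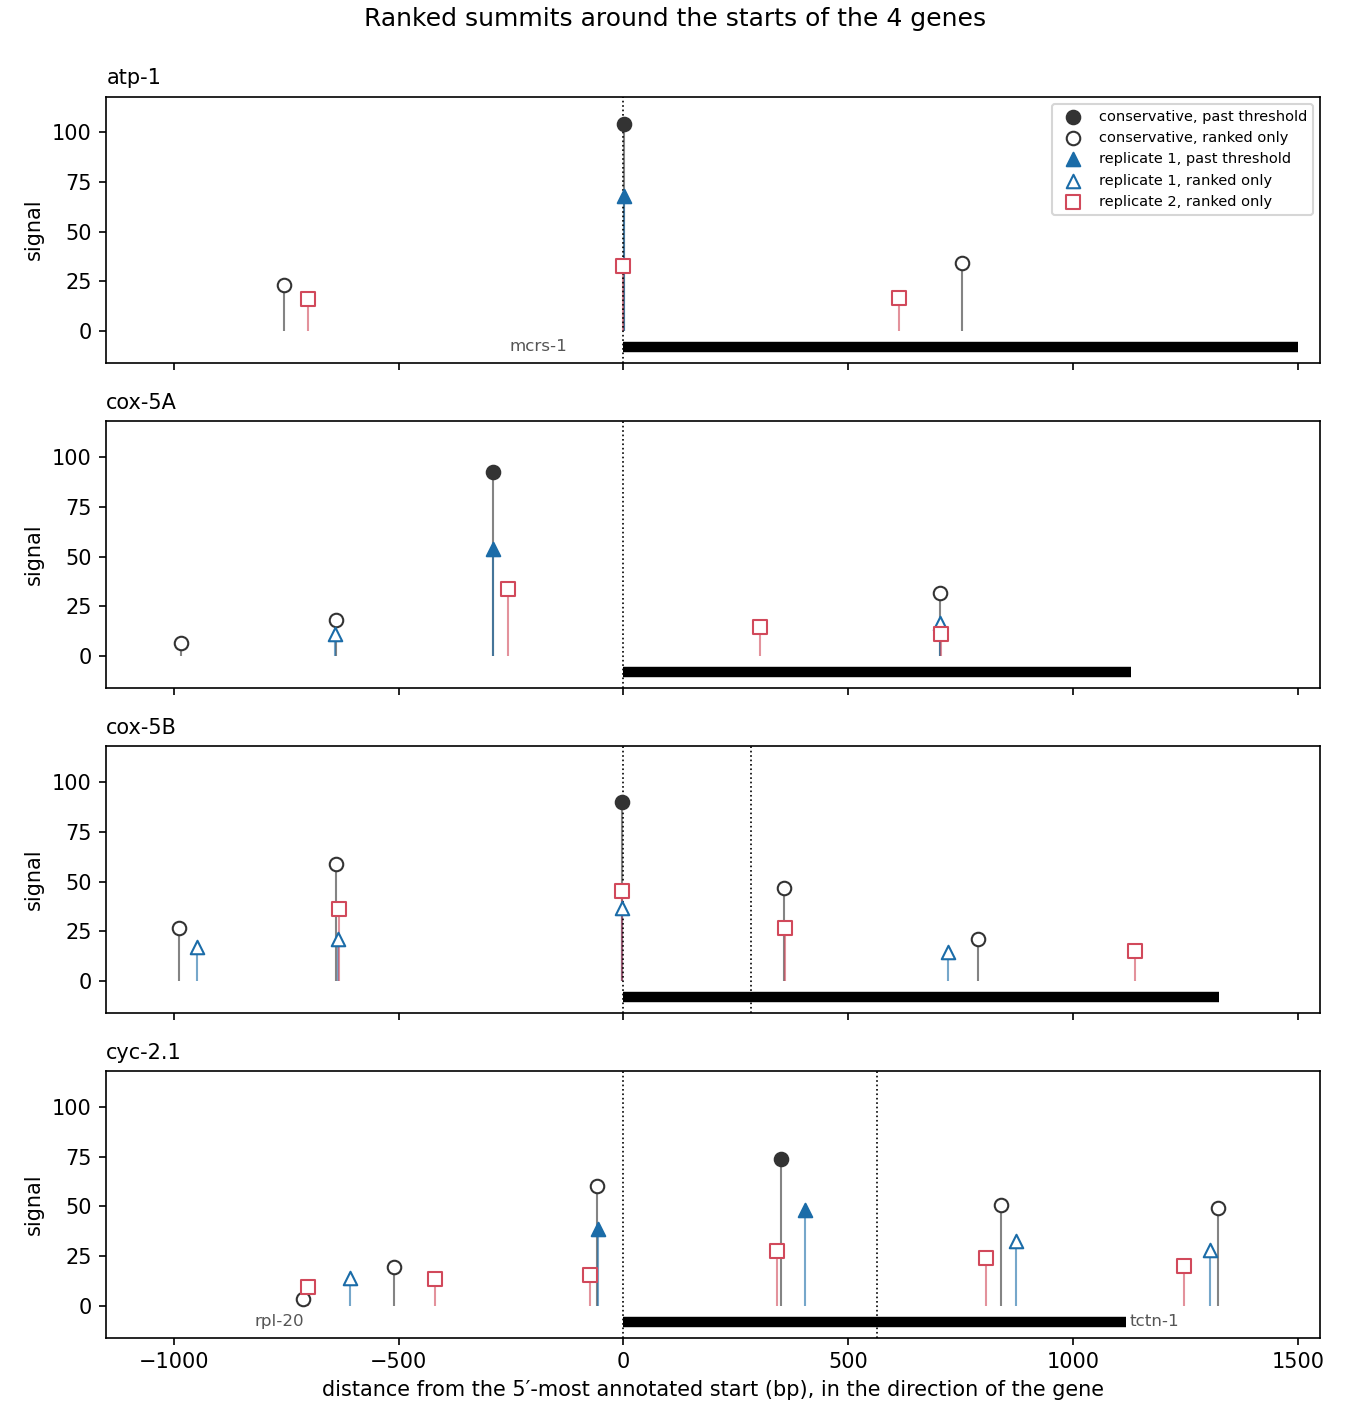
Signal of every ranked summit near the 4 genes, by distance in bp from the most upstream annotated start, in the direction of the gene, for the conservative, replicate 1 and replicate 2 lists. Filled symbols passed the limit of their list, dotted lines mark annotated starts, the black bar is the gene (cut at the right edge for atp-1) and grey names stand at the starts of neighbouring protein-coding genes; the main summit lies at a start in atp-1 and cox-5B, upstream in cox-5A and between the starts in cyc-2.1.

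The other genes named nuo-, cox- and atp- serve as a contrast, and 21 of these 23 had a conservative ranked summit within 500 bp of a start. None of the 23 had a thresholded summit in the conservative list or in either replicate list, and 1 (nuo-3) had one in the other whole-series list. Beside 1.83%, 1.38%, 0.505% and 1.84% of protein-coding genes in these lists, counts of 0 and 1 among so few genes are near the background. Their strongest ranked summits had a median signal of 27.0 in the conservative list and ran from 7.45 to 43.6, while those of the 4 chosen genes ran from 74.0 to 104. In replicate 1, where 16 of the 23 had a ranked summit, the range was 9.19 to 32.5, against 36.8 to 67.7 for the 4. In replicate 2, where 19 had one, it was 4.11 to 26.5, against 27.5 to 45.4. The values did not overlap in these lists, but the 4 genes were chosen on the pooled reads and the contrast genes are those left over. The separation thus follows at least in part from the choice. Nothing is read from it, and no test was made.

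The contrast genes with the highest conservative signals were nuo-3 at 43.6, cox-14 at 42.9, cox-6B at 41.5, atp-4 at 41.3, cox-11 at 35.3 and nuo-4 at 31.8. They encode complex I subunits (nuo-3, nuo-4), a complex IV subunit (cox-6B), complex IV assembly factors (cox-14, cox-11) and an ATP synthase subunit (atp-4). Their scores ran from 115 at nuo-4 to 552 at nuo-3, all below the limit. In the replicates they followed no single order. The percentile of the strongest summit was higher in replicate 1 for cox-6B (98.1 against 67.6) and nuo-4 (82.8 against 55.0). It was higher in replicate 2 for atp-4 (92.9 against 74.3) and nuo-3 (94.9 against 86.5). For cox-11 it was 75.3 in replicate 1 and 71.5 in replicate 2. The strongest summit was taken in each replicate separately. For cox-6B and nuo-4 it lay at a different distance from a start in each, so these pairs need not be the same peak. cox-14 had no ranked summit in either replicate.

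Near relatives of the 4 genes had no thresholded peak and so were left out by the choice. Their values are given as a description, and nothing is read from their being lower. atp-2, which encodes the beta subunit that forms the F1 head with the alpha subunit, had a strongest conservative summit of signal 26.7 and score 237, at percentile 71.7. In replicates 1 and 2 its strongest signals were 20.2 and 18.9. cyc-2.2, the second cytochrome c gene, had no conservative or replicate 1 summit within 500 bp, and its strongest was 17.0 in the other whole-series list and 19.6 in replicate 2.

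Over the whole list of 46 genes, 42 had a conservative ranked summit within 500 bp, and the 4 chosen genes were all that passed the limit. That is 9.52% of the 42, beside 1.83% of protein-coding genes, but the 4 were chosen for having these peaks and nothing is read from the share. The 4 without such a summit were cox-18, cox-7C, cyc-2.2 and isp-1. By group, the conservative list held 2 of 7 complex IV subunit genes, 1 of 9 complex V genes and 1 of 2 cytochrome c genes. It held none of 8 complex I genes, 5 complex II genes, 7 complex III genes and 8 complex IV assembly genes. These totals count only the genes picked by symbol, which may not be all genes of a group. In replicate 1, 3 of 33 list genes with a ranked summit passed the limit (9.09%, beside 1.38% of protein-coding genes). In replicate 2 none of 36 did, near the 0.505% of protein-coding genes.

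Of the list genes past the conservative limit, cyc-2.1 had the lowest score, 945, where the lowest score of any thresholded peak was 830. Just outside was ucr-11, a complex III gene, with a signal of 58.7 and a score of 805 in the conservative list, where its summit lay at -481 bp in an intron of dad-1, an oligosaccharyltransferase subunit gene. The next were cyc-1, which encodes cytochrome c1 of complex III, and nuo-3, both with a score of 552 and with signals of 46.7 and 43.6. The nuo-3 summit at +473 bp lay in its own 5′ untranslated exon and in a coding exon of an overlapping gene.

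In the other whole-series list ucr-11 and nuo-3 had the same signals but scores of 971 and 872, and both passed, which brought the list genes past the limit to 6 of 44 (13.6%, beside 1.84% of protein-coding genes), the 4 chosen genes included. The replicate lists held neither past the limit. For ucr-11 the signals were 32.8 and 26.0 with scores of 673 and 214 in replicates 1 and 2, and for nuo-3 they were 20.9 and 26.5 with scores of 121 and 102. In replicate 2 the lowest chosen gene, cyc-2.1 at 27.5, was close to the complex III gene ucr-1 at 27.1 and to nuo-3 at 26.5.

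**Figure D3:**
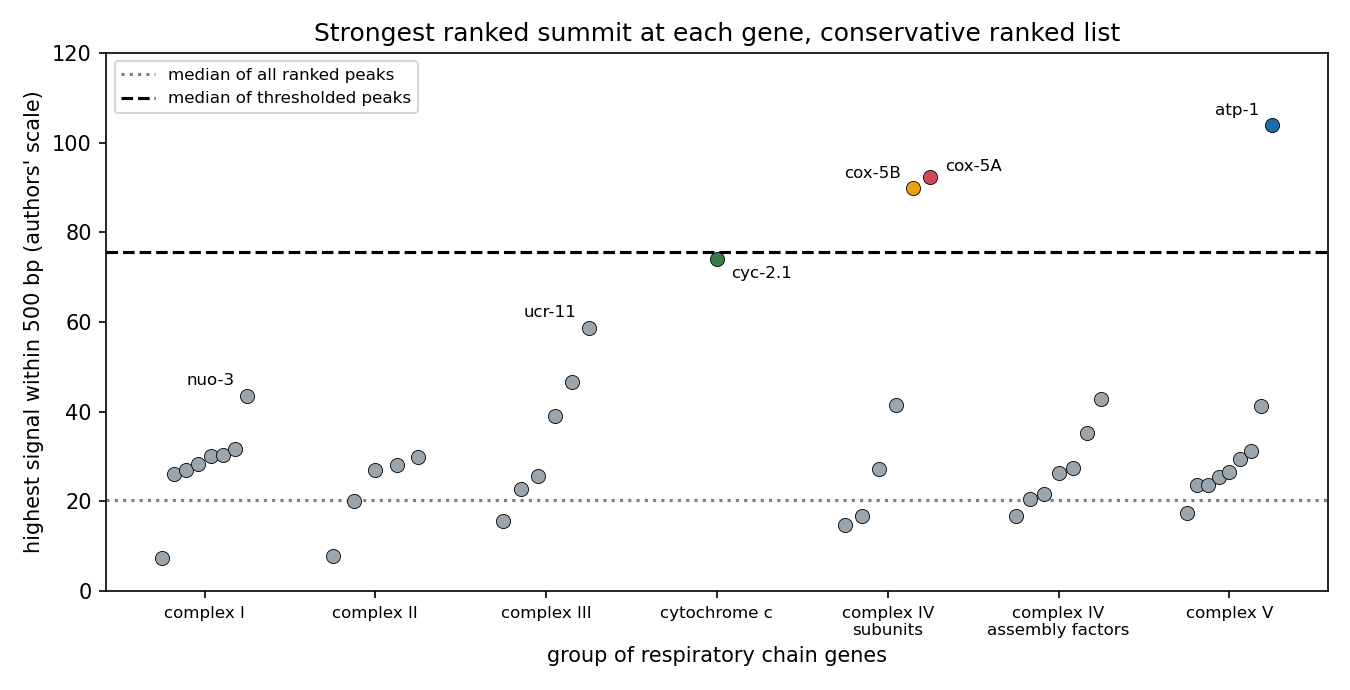
Highest signal within 500 bp of a start in the conservative ranked list for the 42 respiratory chain genes that had a ranked summit, by group; genes without one are left out. Coloured points are the 4 chosen genes, grey points the others, and the lines mark the median signal of all ranked peaks (20.4) and of thresholded peaks (75.6); the highest grey point is ucr-11 at 58.7.

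**Figure D4:**
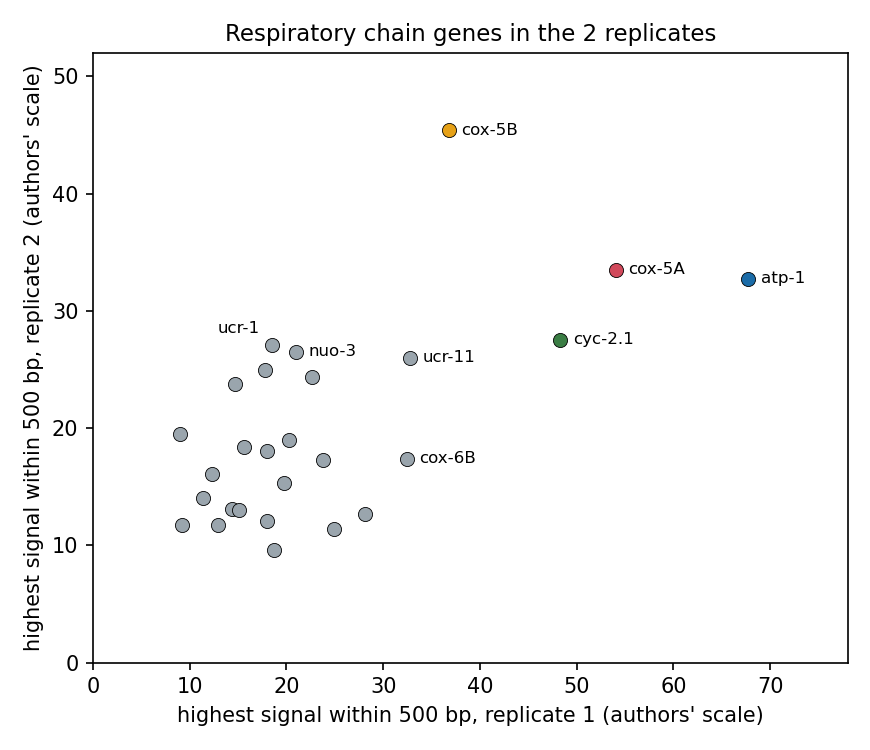
Highest signal within 500 bp of a start in the ranked list of replicate 1 (horizontal) and replicate 2 (vertical) for the 27 respiratory chain genes with a ranked summit in both. Coloured points are the 4 chosen genes, of which cox-5B lies highest on the vertical axis at 45.4 and atp-1 farthest right at 67.7; several other genes are labelled.

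Set among all 813 conservative peaks, atp-1 ranked 153 by signal and cyc-2.1 ranked 432, with cox-5B at 233 and cox-5A at 217 between them. Among the 259 conservative peaks within 500 bp of a protein-coding start the 4 ranked 49, 62, 66 and 120, where the quartiles of signal were 62.7, 72.0 and 90.6. Of these 259 peaks, 41 passed the limit in both replicates, 57 did so in replicate 1 but not 2, 11 in replicate 2 but not 1, and 150 (57.9%) in neither. The peaks of cyc-2.1, atp-1 and cox-5A were among the 57 and that of cox-5B among the 150. A tRNA or snoRNA gene began within 500 bp of 73 of the 259 peaks, and of none of the 4.

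The share of G and C in the 50 bp on either side of the summit was 59.4% at atp-1, 58.4% at cox-5B, 53.5% at cox-5A and 43.6% at cyc-2.1. The first 3 were above the median of 44.6% for the 21 contrast genes, whose windows ranged from 19.8% to 58.4%, and cyc-2.1 was below it. Conservative peaks in general were also above that median. Theirs was 48.5% for the 259 protein-coding peaks (quartiles 42.6% and 53.5%) and 49.5% for all 813. Of the 813 conservative peaks, 94.5% had a lower share than atp-1, 92.6% than cox-5B, 71.5% than cox-5A and 26.2% than cyc-2.1. None of them lay in a tandem repeat, and none lay on the chromosome of madf-5 (II) or close to unc-119 (III), which is 1996 kb from cox-5A.

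7 short motifs were searched on both strands in 201 bp at each summit. The run CTGCGTCT matched at cyc-2.1, where its last bases overlap the shared run printed above, and it occurred in 2.78% of 19973 promoters and 5.79% of the 259 protein-coding summits. The run of thymines TTTTTTTT matched at atp-1 and in 26.3% of promoters. The core of the tRNA B box, GGTTCGA, matched at none of the 4, although 24.6% of the 813 summits and 0.851% of promoters held it. The E-box CACGTG (4.23% of promoters), the GATA-type TGATAAG (7.11%), the repeat GAGAGAGA (2.73%) and GCGC and GCGC with any 2 bases between (0.240%) matched at none. A match is a description of the letters in the window.

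Strong ranked summits were also counted from 500 bp upstream of each gene to its end. Taking the 10% of conservative ranked summits with the highest signal (35.7 or more), each of the 4 had at least 1, with 3 at cyc-2.1, 2 at cox-5B and 1 at the other two. Of the 23 contrast genes, 9 had at least 1 and 1, cox-6B, had more, with 12. These counts grow with the length covered, which was 1.62 to 2.88 kb for the 4 genes and 87.7 kb for cox-6B. The 4 were chosen for peaks past the limit of the conservative list, with signals of 74.0 to 104. Each was therefore bound to hold at least 1 such summit, and the contrast genes are those left over. The count over all protein-coding genes is not given, and nothing is read from the difference. Ranked summits of any signal numbered 1.69 per kb at the median in the 4 and 1.36 per kb in the contrast genes, within the range of 0.684 to 2.26 of the latter.

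The protein-coding peaks most like each of the 4 were found by the distance over 3 percentiles of signal, in the conservative list and in the ranked list of each replicate, among 257 peaks. For cox-5B the nearest was W08A12.2, at a distance of 0.324 percentile points, followed by the peak shared by C47E8.4 and hsp-90 at 1.93. That C47E8.4 and hsp-90 peak was also nearest to cox-5A (0.770), before aex-1 (1.03). For atp-1 they were twk-5 (1.06) and C35E7.9 (1.38), and for cyc-2.1 they were F19C6.4 (1.16) and tkr-3 (1.84). The measure weighs mainly the conservative list, over which the percentiles vary most. None of these is a gene of the respiratory chain list.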

How the data were processed

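ChIP-seq of MADF-5::GFP was analysed from peak lists on ce11, 2 biological replicates of 1 group. Each list deposited by the authors holds, per peak, a signal value of unstated scale, an IDR score of at most 1000 and the summit as an offset from the peak start. The authors derived the lists from the alignments of each replicate or of both, per the notes supplied with the data. For the aligner, the peak caller, their versions and the read totals, nothing is given in the sources used here. The conservative ranked list was identified as the one that holds all 813 conservative peaks with the same values. Summits were placed against transcript starts of Ensembl release 115 (WBcel235) within 500 bp, and the background was every protein-coding gene within 500 bp of a ranked summit of the same list. The piRNA genes were left out of that annotation before starts and neighbours were searched. The computation used Python 3.11.15, pandas 2.3.3, numpy 2.4.6 and scipy 1.17.1, and was tested on simulated data, in which all 145 planted summits inside the window were recovered. Peaks were taken as shared between lists from 1 bp of overlap.

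The genes and lists were chosen with earlier results of these data known. Genes are named if they are one of the 4, have a start near a summit of one, passed a limit, are paralogues, are among the 6 strongest contrast genes or have the most similar peaks; other neighbours, cyc-1, ucr-1 and the genes without a summit were added after their values were seen, as was the shared run. Alternatives covered the list, the window, score and signal limits, overlap in place of summits, RefSeq starts and the background.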

Additional observations from a re-analysis of the deposited data

How the results depend on the processing

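The count of the 4 genes with a thresholded summit at a start was 0 to 3 with 1 replicate left out (0 in the list of replicate 2 alone), and 2 where the peak interval had to overlap the start; the count over the list of 46 took the same values. It was 3 at a window of 250 bp (without cox-5A), and 3 with a score of 1000 or with the 50% of peaks of highest signal (without cyc-2.1), and 4 at 1000 bp and with RefSeq starts. The contrast count rose from 0 to 1 in the other whole-series list, through nuo-3, whose signal was equal in both lists and whose score differed. The share of protein-coding genes, 1.83% (95% Wilson interval 1.63 to 2.05), became 1.17% at 250 bp, 2.62% at 1000 bp, 0.980% at a score of 1000, 0.808% for the 50% of highest signal, 0.943% by overlap and 1.44% over all genes, and 0.505 to 1.38% with 1 replicate left out. Of the 4 peaks, 0 overlapped a thresholded peak of replicate 2 and 4 overlapped a ranked one. The lowest percentile of the 4 was 99.5 and ran from 95.8 to 98.8 with 1 replicate left out. In 31 of 46 comparisons a count stayed within 1.5 times its value or a share or percentile within its error, and this includes changes from 4 to 3 and from 4 to 6. Some of these could not change: a contrast count of 0 cannot rise with a narrower window or a stricter limit, and 4 cannot fall at 1000 bp. The error of a percentile was the standard deviation of the 2 replicate percentiles, which were among the values compared. The tally is therefore no measure of robustness. No paired analysis was possible because the replicates form 1 group. Without read totals or an analysed control, the error of a single signal is unknown.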

Other observations

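Genes of other mitochondrial functions were placed against the same lists, with the symbols chosen after the values of the respiratory chain genes were known. Of 70 genes named mrpl- or mrps-, which encode proteins of the mitochondrial ribosome, 59 had a conservative ranked summit within 500 bp of a start, and 0 had a thresholded one in the conservative list, the other whole-series list or either replicate list. Of 13 genes named timm-, tomm- or tin-, which encode parts of the protein import machinery, 12 had a ranked summit and 0 had a thresholded one in any of these 4 lists. For all protein-coding genes near a ranked summit the share in the conservative list was 1.83%, and no test was made.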
